A study of Mus musculus with 18 samples.

Results

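The genes described here are 42 mouse genes of DNA replication and mitosis, taken by symbol from a list and found, all 42 of 42, among the 52636 gene IDs of a raw count table from liver RNA sequencing. By role, 17 act in DNA replication or in making its nucleotides, 16 act in mitosis or drive entry into it, and 9 are transcription regulators or G1 cyclins. All 42 were counted in 1 or more libraries, 34 had a count in every library, and 39 were among the 13958 genes tested. The untested genes were Cdc6, Bub1 and E2f7.

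Adult hepatocytes rarely divide. When a cell is driven into the cycle, D-type cyclins with their kinases release E2F transcription factors from the pocket proteins, and E2F factors raise genes for the MCM helicase, its loading factors and the enzymes that make deoxynucleotides. A second wave is driven through B-MYB, FOXM1 and the MuvB complex at promoter elements called CHR and CCAAT. It raises the genes of chromosome condensation, the spindle and cytokinesis. In mouse liver, the nuclear receptor HNF4A is known to restrain hepatocyte proliferation, and the clock activator BMAL1, encoded by Arntl, is known to time liver transcription.

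Liver was sampled at ZT8, in the light phase, from 6 groups of 3 numbered replicates, and nothing in the labels says more of how the replicates were separated, so p-values measure the spread between these libraries. H-KO and H-WT mice were 10 weeks old and carried Hnf4atm1.1Gonz, a conditional allele, with Albtm1(cre/ERT2)Mtz, which places a tamoxifen-dependent Cre at the albumin gene and so drives it in hepatocytes. BH-KO and BH-WT mice were also 10 weeks old and carried Arntltm1Weit, a conditional allele of Arntl, in addition. BH-HF-KO and BH-HF-WT mice had the strain label of the BH groups, and were 45 weeks old after 35 weeks of high-fat diet that began at 10 weeks. All 6 groups, WT included, were given intraperitoneal tamoxifen in corn oil (10 mg/mL) on 5 days at 8 weeks of age. Within a pair, KO and WT have the same strain label, and the labels and protocols do not say how WT mice were defined.

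Total counts were 6846471 to 9816124 per library. Levels are CPM, a depth-normalised count relative to the counts on tested genes, scaled by TMM factors of 0.830 to 1.38. A count of 0 allowed up to 0.264 to 0.48 CPM, for counting error only. BH-KO replicate 1 stood apart. On the first principal component of all tested genes, which held 48.3% of the variance, it lay at 1.32, against -80.31 and -78.99 in BH-KO replicates 2 and 3 and 2.19 to 27.20 in BH-WT. Its TMM factor was 0.881, against 1.26 and 1.30 in the other BH-KO libraries. Results on BH-KO are therefore given both with that library and after leaving it out. Of the targeted genes, Hnf4a was at 867, 500 and 495 CPM in BH-KO replicates 1, 2 and 3, against 772 to 890 CPM in BH-WT, and at 556 to 658 CPM in H-KO, against 581 to 889 CPM in H-WT. Arntl was at 17.4, 22.3 and 24.1 CPM in BH-KO, against 0.421 to 0.799 CPM in BH-WT. A count over the whole gene includes exons outside a deleted part, so it does not check the deletion. In the libraries labelled BH-HF-KO, neither gene stood apart, with 0.885 to 2.54 CPM of Arntl, against 1.03 to 2.0 CPM in BH-HF-WT, and 820 to 978 CPM of Hnf4a, against 768 to 840 CPM. Every direction given for BH-HF-KO rests on that label. H-WT replicate 3 had 1084 CPM of Xist, which silences an X chromosome, against 0.245 to 3.90 CPM in the other libraries.

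Promoters are shown for 6 of the genes that moved in BH-KO livers, the 3 replication and the 3 mitosis genes with the smallest p among those that have an entry and could be shown. They come from RefSeq (GRCm38.p6), run 5′ to 3′ on the gene's strand and span 250 bases before to 50 after the start. Of the 42 genes, 32 have an entry there. Capitals mark the CHR letters TTTGAA, the CCAAT box and the E2F letters TTTCCCGC, TTTCGCGC, TTTGCCGC or TTTGGCGC, each searched on both strands, so TTCAAA and ATTGG are the same motifs read on the other strand. In the Mcm5 promoter, 2 E2F matches overlap on opposite strands. The windows are Mcm10 at chr2:5012742-5013041 (minus strand), Mcm5 at chr8:75109259-75109558 (plus), Mcm2 at chr6:88898731-88899030 (minus), Cdc20 at chr4:118437294-118437593 (minus), Plk1 at chr7:122159185-122159484 (plus) and Top2a at chr11:99024140-99024439 (minus).
Mcm10: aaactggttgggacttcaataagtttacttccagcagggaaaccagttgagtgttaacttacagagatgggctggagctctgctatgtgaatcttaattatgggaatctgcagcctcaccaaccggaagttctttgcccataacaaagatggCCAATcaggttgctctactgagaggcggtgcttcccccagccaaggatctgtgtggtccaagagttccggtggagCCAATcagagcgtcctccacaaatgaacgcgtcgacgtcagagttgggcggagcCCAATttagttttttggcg
Mcm5: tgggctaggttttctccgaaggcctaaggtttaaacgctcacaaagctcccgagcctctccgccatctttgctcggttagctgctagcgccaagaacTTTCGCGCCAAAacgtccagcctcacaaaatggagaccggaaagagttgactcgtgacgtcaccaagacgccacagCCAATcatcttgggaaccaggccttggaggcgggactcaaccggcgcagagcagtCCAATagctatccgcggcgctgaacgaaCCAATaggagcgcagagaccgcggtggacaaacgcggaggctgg
Mcm2: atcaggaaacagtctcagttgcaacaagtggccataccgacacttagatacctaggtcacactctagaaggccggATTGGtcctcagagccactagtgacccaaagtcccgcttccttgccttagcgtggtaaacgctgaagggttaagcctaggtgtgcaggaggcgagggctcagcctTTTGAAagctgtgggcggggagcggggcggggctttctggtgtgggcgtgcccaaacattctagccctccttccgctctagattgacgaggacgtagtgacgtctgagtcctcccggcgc
Cdc20: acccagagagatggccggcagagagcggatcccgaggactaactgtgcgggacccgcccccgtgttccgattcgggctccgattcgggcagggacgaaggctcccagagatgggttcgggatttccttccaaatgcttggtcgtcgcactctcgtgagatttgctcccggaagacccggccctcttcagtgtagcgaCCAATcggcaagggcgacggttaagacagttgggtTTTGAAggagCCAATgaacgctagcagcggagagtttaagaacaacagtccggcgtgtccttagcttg
Plk1: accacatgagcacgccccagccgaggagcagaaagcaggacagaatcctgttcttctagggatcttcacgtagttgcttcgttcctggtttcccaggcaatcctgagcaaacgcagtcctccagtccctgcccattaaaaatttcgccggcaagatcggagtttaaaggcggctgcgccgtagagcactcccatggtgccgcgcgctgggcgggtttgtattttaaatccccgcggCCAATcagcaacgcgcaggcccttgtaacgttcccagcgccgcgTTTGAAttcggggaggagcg
Top2a: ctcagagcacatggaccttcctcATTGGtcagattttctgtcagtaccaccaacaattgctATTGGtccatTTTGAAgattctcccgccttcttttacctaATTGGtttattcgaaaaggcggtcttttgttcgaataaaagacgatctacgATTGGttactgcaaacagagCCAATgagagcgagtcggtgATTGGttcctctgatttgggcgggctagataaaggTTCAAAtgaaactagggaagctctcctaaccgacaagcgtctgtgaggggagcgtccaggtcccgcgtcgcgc

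By role, TTTGAA was in 9 of 13 mitosis promoters (69.2%) and in 2 of 14 replication promoters (14.3%), against 17.9% of the 32851 promoters of the same length in the table. One of the E2F octamers was in 6 of 14 replication promoters (42.9%) and in 1 of 13 mitosis promoters (7.69%), against 2.26% of all promoters. CCAAT was in 12 of 13 mitosis promoters (92.3%) and 10 of 14 replication promoters (71.4%), against 37.4% of all. CACGTG, the E-box bound by clock activators and by MYC, was in 1 of 32 promoters (3.12%), against 7.15% of all. The 3 CCAAT boxes of Mcm10 stood without TTTGAA or an E2F octamer, whereas Cdc20, Plk1 and Top2a each held TTTGAA and CCAAT. These are matches of letters and do not show binding.

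In BH-KO livers, 14 of the 39 tested genes rose against BH-WT and 2 fell at an adjusted p under 0.05 (edgeR quasi-likelihood test, adjusted over all genes), where 14.3% of all tested genes rose and 14.3% fell. Replicate 1 was the lowest BH-KO library for 32 of the 42 genes, and for 43.2% of all tested genes. The subunits of the MCM helicase Mcm2, Mcm4, Mcm5, Mcm6 and Mcm7 rose, as did cyclin A2 (Ccna2), the mitotic activators Cdc20 and Plk1, and topoisomerase Top2a. E2f8, a repressor of E2F targets known to act in hepatocyte polyploidy, rose and was high in all 3 libraries. Mcm10, which links the helicase to DNA polymerase, went the other way and fell to 5.17 ± 0.80 CPM in BH-KO, against 94.7 ± 11.2 CPM in BH-WT (SD, n = 3 each). When BH-KO replicate 2 was left out, no mitosis gene passed.

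Some of these genes were tested only because of their level in KO livers. The filter asked for its level in about 3 libraries, and 12 of the 39 reached it in fewer than 3 WT libraries. Of these, 8 reached it in no WT library (Gins2, Ccnb1, Plk1, Aurkb, Bub1b, Kif20a, Foxm1 and Mybl2) and 4 in a single one (Ccna2, Ccnb2, Cdc20 and Cenpe). They include 4 of the 5 mitosis genes that rose in BH-KO, Ccna2, Cdc20, Plk1 and Kif20a. A gene that entered the test in this way was selected by its level in KO livers, which favours a rise. The counts over tested genes are therefore a description. With no filter, 11 of the 42 genes rose and 2 fell in BH-KO, where 5.16% of all genes with a count rose and 5.11% fell. In that fit Ccna2, Cdc20, Plk1 and Kif20a rose (adjusted p of 0.0143 to 0.0395, edgeR) and Top2a did not pass (adjusted p = 0.089). In level, 13 of the 42 had all 3 BH-KO libraries above all BH-WT libraries (18% of all tested genes) and 2 had them below (16.8%). The median log2 fold change of the 42 with no filter was 0.96, against 0.00 for all genes with a count. With libraries scaled by their totals alone, 22 rose and 1 fell, where 4351 of all tested genes rose and 1203 fell, against 2000 and 1990 with TMM factors. In bulk liver RNA, more cells of a kind and more RNA per cell cannot be told apart.

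**Figure D1:**
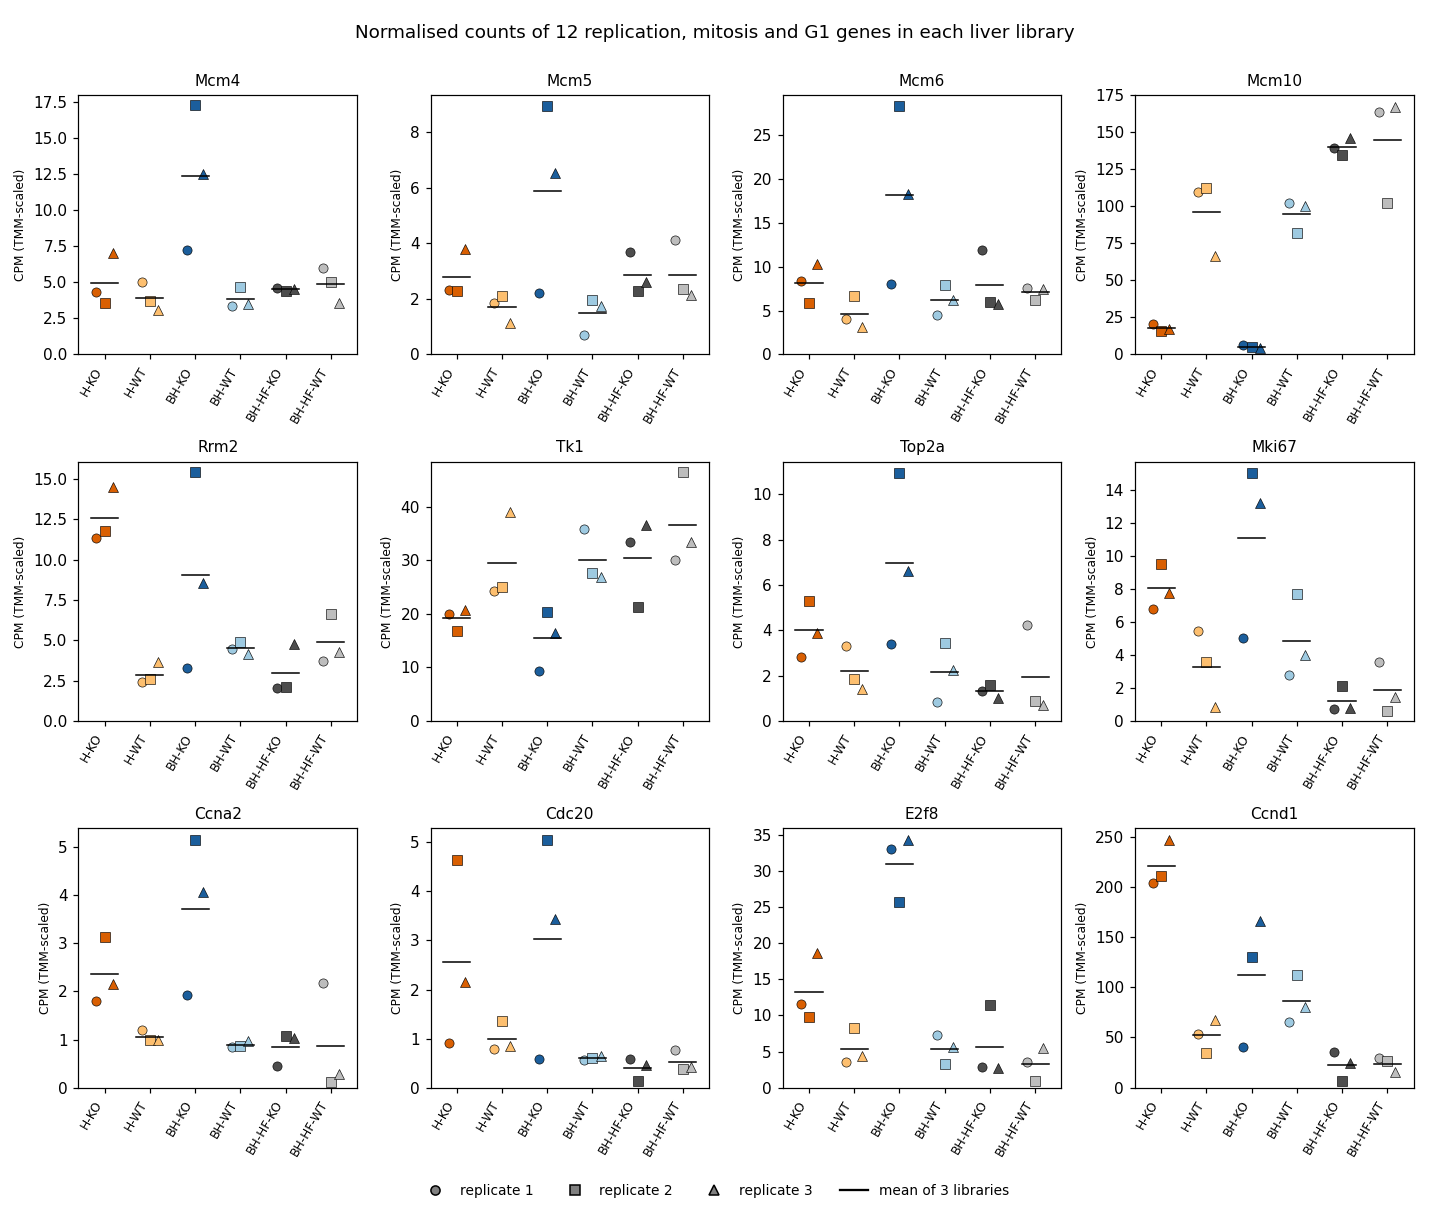
Normalised counts (CPM, TMM-scaled, linear axes from 0) of 12 replication, mitosis and G1 genes in each library of the 6 groups, with replicates 1, 2 and 3 as circles, squares and triangles and the group mean as a line. In BH-KO, replicates 2 and 3 lie above replicate 1 for most genes shown, whereas E2f8 is high and Mcm10 low in all 3 libraries; Ccnd1 and Rrm2 are high in all 3 H-KO libraries.

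The MCM helicase is a ring of the proteins encoded by Mcm2 to Mcm7 that unwinds DNA at the fork. Mcm4 was at 7.28, 17.3 and 12.5 CPM in BH-KO replicates 1, 2 and 3, against 3.37, 4.66 and 3.52 CPM in BH-WT. Mcm5 was at 2.23, 8.94 and 6.52 CPM in BH-KO, against 0.702, 1.96 and 1.76 CPM in BH-WT. For both genes each BH-KO library lay above all 3 BH-WT libraries, with replicate 1 nearest to them. Mcm4 rose by 1.68 ± 0.32 on the log2 scale (SE, adjusted p = 0.00165, edgeR) and Mcm5 by 2.0 ± 0.48 (adjusted p = 0.00724), and without BH-KO replicate 1 the values were 1.94 ± 0.29 and 2.37 ± 0.41.

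Mcm6 was at 8.02, 28.3 and 18.2 CPM in BH-KO, against 4.49, 7.97 and 6.23 CPM in BH-WT. Mcm2 was at 5.05, 10.9 and 7.67 CPM in BH-KO, against 1.68, 3.31 and 4.0 CPM in BH-WT. Neither gene overlapped between the groups, but for Mcm6 BH-KO replicate 1 was barely above the highest BH-WT library. Their log2 fold changes were 1.55 ± 0.41 (adjusted p = 0.0124, edgeR) and 1.41 ± 0.36 (adjusted p = 0.00958). Mcm7 rose less, by 0.62 ± 0.19 (adjusted p = 0.0256), with 12.3, 21.3 and 16.6 CPM in BH-KO, against 10.7 to 11.2 CPM in BH-WT. Mcm3, the remaining ring subunit, had 5.35, 15 and 8.11 CPM in BH-KO, against 3.36 to 7.11 CPM in BH-WT, and passed only without BH-KO replicate 1 (1.19 ± 0.36, adjusted p = 0.0144, against an adjusted p of 0.0773 with it).

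The proteins that turn the ring into a working helicase are Cdc45 and the GINS complex. Cdc45 rose by 1.38 ± 0.43 on the log2 scale (adjusted p = 0.0274, edgeR), with 1.19, 2.66 and 1.59 CPM in BH-KO, against 0.702, 0.613 and 0.799 CPM in BH-WT. Gins2 had 0, 1.24 and 1.5 CPM in BH-KO, against 0, 0 and 0.320 CPM in BH-WT, which is 30 counts in the BH-KO libraries and 2 in the BH-WT libraries. The ratio of these sums was 11.3, with an exact interval of 2.87 to 97.6 that covers counting error only, and the test gave an adjusted p of 0.036. Gins2 shares 67.3% of its exon bases with Gse1 on the opposite strand, and the labels do not say whether counting used strand, so its value is uncertain. Gins1, of the same complex, had 4.31, 4.09 and 2.20 CPM in BH-KO, against 4.21, 2.57 and 2.40 CPM in BH-WT, so the groups overlapped, and it did not pass.

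Among the nucleotide enzymes, the subunits of ribonucleotide reductase are Rrm1 and Rrm2. Rrm1 rose by 0.50 ± 0.17 on the log2 scale (adjusted p = 0.0343, edgeR), with 14.4, 22.7 and 16.9 CPM in BH-KO, against 12 to 14.2 CPM in BH-WT. Rrm2 was at 3.27, 15.4 and 8.55 CPM in BH-KO, against 4.49, 4.90 and 4.16 CPM in BH-WT, so that replicate 1 was below and the others above every BH-WT library. Rrm2 did not pass with all 3 BH-KO libraries (1.02 ± 0.42, adjusted p = 0.0803) and rose by 1.40 ± 0.33 without replicate 1 (adjusted p = 0.00345). Tk1, the salvage thymidine kinase, moved against its neighbours. It was at 9.36, 20.4 and 16.5 CPM in BH-KO, against 35.8, 27.7 and 26.9 CPM in BH-WT, with no overlap, and fell by 0.95 ± 0.28 on the log2 scale (adjusted p = 0.0192). When libraries were scaled by their totals alone, the fall of Tk1 was 0.56 and did not pass (adjusted p = 0.171). Tyms, thymidylate synthase, was at 8.11 to 9.79 CPM in BH-KO, against 7.44 to 8.58 CPM in BH-WT, and did not pass.

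Pcna, the sliding clamp of DNA polymerase, was at 15.1, 17.6 and 21 CPM in BH-KO, against 14, 15.8 and 12.6 CPM in BH-WT. Replicate 1 lay within the BH-WT range and the others above it. Its log2 fold change was 0.34 ± 0.15 (adjusted p = 0.108, edgeR), and 0.44 ± 0.16 without BH-KO replicate 1 (adjusted p = 0.0348). Of the helicase loaders, Cdt1 was at 1.63 to 3.71 CPM in BH-KO, against 2.72 to 4.29 CPM in BH-WT, and the untested Cdc6 was at 0.297 to 0.529 CPM, against 0 to 0.490 CPM.

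Mcm10 differed most. It was at 6.09, 4.85 and 4.58 CPM in BH-KO, against 102, 81.9 and 99.9 CPM in BH-WT, and its log2 fold change was -4.21 ± 0.24 (adjusted p = 5.25e-08, edgeR). It was at 20.6, 15.8 and 17.1 CPM in H-KO, against 110, 112 and 66.5 CPM in H-WT, with a log2 fold change of -2.43 ± 0.21 (adjusted p = 4.06e-06). All 6 libraries of these KO groups lay below every WT library of their pair, and BH-KO replicate 1 was as low as its group. The fall was larger in BH-KO than in H-KO by 1.77 ± 0.30 on the log2 scale (adjusted p = 0.00416 for the difference of KO effects), and by 1.89 ± 0.33 without BH-KO replicate 1. Per kilobase of exon, Mcm10 was at 2.31 ± 0.323 CPM in H-KO, against 12.5 ± 3.35 CPM in H-WT, and at 0.673 ± 0.104 CPM in BH-KO, against 12.3 ± 1.46 CPM in BH-WT (SD, n = 3 each). In WT livers that is above the other Mcm genes, whose group means per kilobase were 0.369 to 2.53 CPM. No other annotated gene shares exon bases with Mcm10, which lies on chromosome 2 from 4989714 to 5012791 (mm10, minus strand).

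Among the mitosis genes, Ccna2, the cyclin of S and G2 phase, was at 1.93, 5.14 and 4.05 CPM in BH-KO, against 0.842, 0.858 and 0.959 CPM in BH-WT. Top2a, which untangles chromosomes, was at 3.42, 10.9 and 6.61 CPM in BH-KO, against 0.842, 3.43 and 2.24 CPM in BH-WT. The groups did not overlap for Ccna2, while for Top2a replicate 1 was just below the highest BH-WT library. The log2 fold changes were 2.07 ± 0.62 for Ccna2 (adjusted p = 0.0217, edgeR) and 1.68 ± 0.60 for Top2a (adjusted p = 0.0466).

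Cdc20, an activator of the anaphase-promoting complex, was at 0.594, 5.04 and 3.44 CPM in BH-KO, against 0.561, 0.613 and 0.639 CPM in BH-WT. Plk1, a mitotic kinase, was at 1.19, 2.66 and 1.06 CPM in BH-KO, against 0.561, 0.490 and 0.160 CPM in BH-WT. Kif20a, a kinesin of cytokinesis, was at 1.19, 5.42 and 2.91 CPM in BH-KO, against 1.26, 0.735 and 0.639 CPM in BH-WT. For Cdc20 and Kif20a replicate 1 lay within the BH-WT range and replicates 2 and 3 far above it, while for Plk1 all 3 libraries were above. The log2 fold changes were 2.33 ± 0.70 for Cdc20 (adjusted p = 0.0209, edgeR), 1.96 ± 0.60 for Plk1 (adjusted p = 0.0238) and 1.86 ± 0.51 for Kif20a (adjusted p = 0.0141). Kif20a shares 29.3% of its exon bases with Cdc23 on the opposite strand, and Ccna2 shares 12.5% with Exosc9.

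The standard proliferation marker Mki67 did not pass with all 3 BH-KO libraries. It was at 5.05, 15 and 13.2 CPM in BH-KO, against 2.81, 7.72 and 4.0 CPM in BH-WT, with a log2 fold change of 1.20 ± 0.59 (adjusted p = 0.141, edgeR) that became 1.53 ± 0.57 without replicate 1 (adjusted p = 0.0453). Replicate 1 lay inside the BH-WT range. Cdk1, the kinase that starts mitosis, was at 1.04, 5.23 and 3.61 CPM in BH-KO, against 0.281, 2.70 and 2.56 CPM in BH-WT, and passed neither with that library (adjusted p = 0.3) nor without it (adjusted p = 0.0819). Its partner Ccnb1 was at 0.446, 4.66 and 3.08 CPM in BH-KO, against 0.421, 0.490 and 0.799 CPM in BH-WT (2.29 ± 0.84, adjusted p = 0.0515), and rose by 2.75 ± 0.72 without replicate 1 (adjusted p = 0.00639). The survival and chromosome passenger gene Birc5, the passenger kinase Aurkb and the kinetochore motor Cenpe also passed only without that library, whereas Aurka, Bub1b, Kif11 and Ccnb2 passed in neither.

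**Figure D2:**
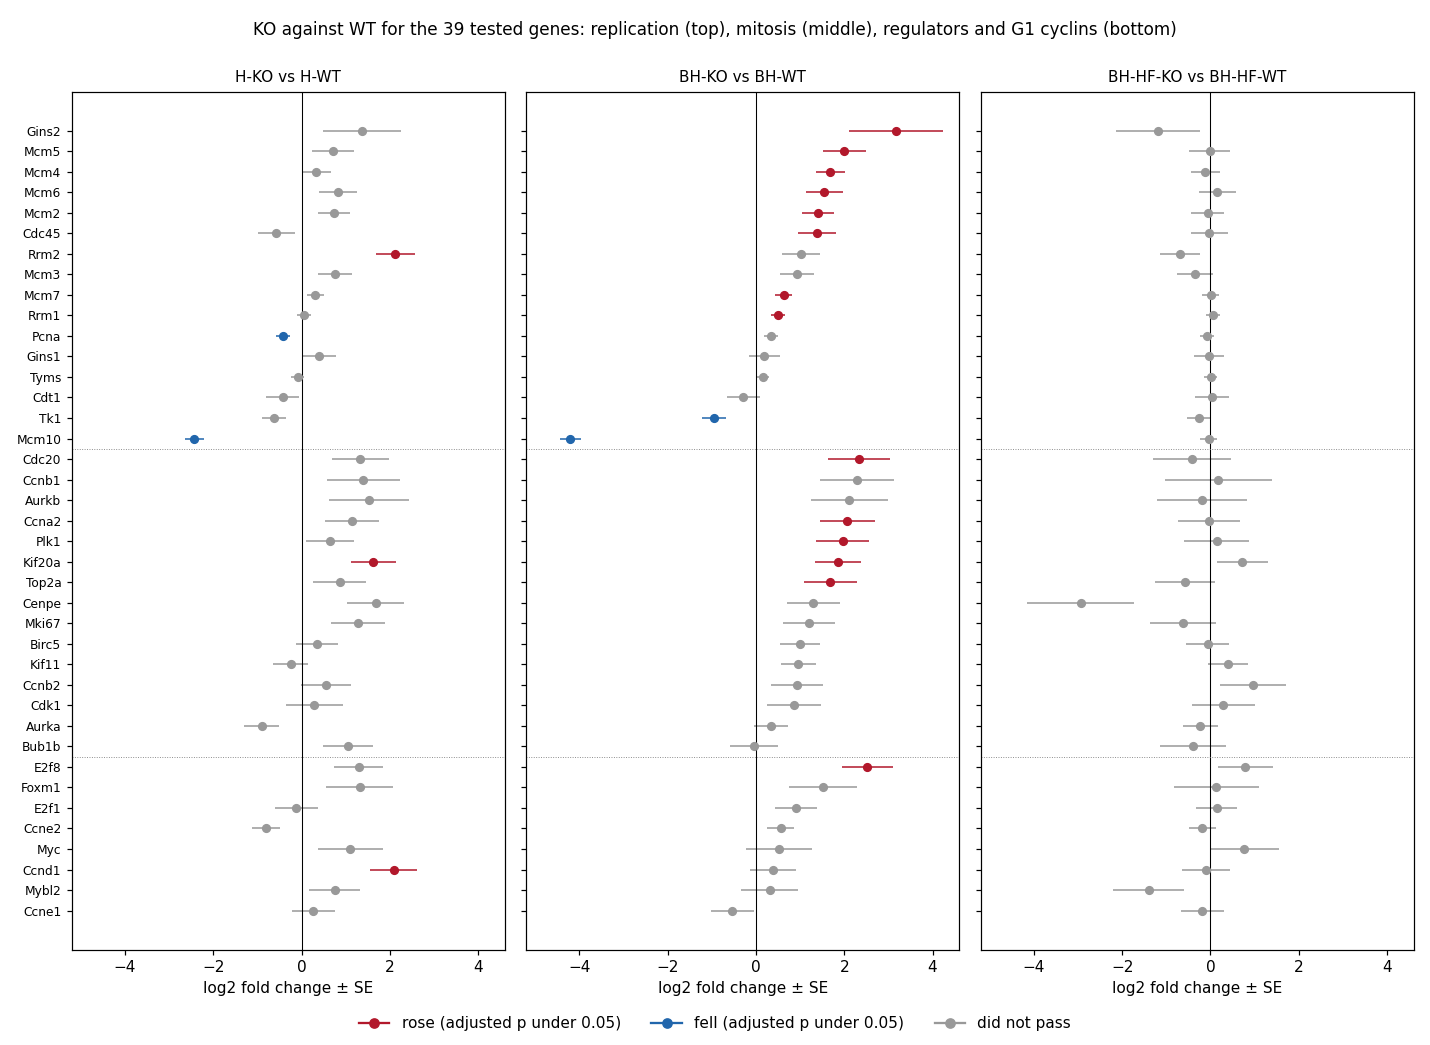
Log2 fold changes with their standard errors for the 39 tested genes in H-KO, BH-KO and BH-HF-KO, each against its own WT group, ordered within each role by the value in BH-KO. In BH-KO, 14 genes (red) rose and 2 (blue) fell, in H-KO 3 rose and 2 fell, and in BH-HF-KO none passed.

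Of the regulators, E2f8 alone passed in BH-KO. It was at 33, 25.7 and 34.2 CPM in BH-KO, against 7.30, 3.31 and 5.59 CPM in BH-WT, so that replicate 1 was as high as the others. Its log2 fold change was 2.52 ± 0.57 (adjusted p = 0.00572, edgeR), and 2.48 ± 0.62 without replicate 1. E2f8 shares 11.2% of its exon bases with Gm2788 on the opposite strand. Foxm1, an activator of mitosis genes, had 0, 2.38 and 1.85 CPM in BH-KO, against 0.421, 0.613 and 0.480 CPM in BH-WT, and passed only without replicate 1 (2.02 ± 0.52, adjusted p = 0.0059, against 0.146 with it). Ccnd1 was at 40.2, 130 and 166 CPM in BH-KO, against 65.1, 113 and 80.4 CPM in BH-WT, and Myc at 6.83, 17.5 and 10.5 CPM, against 6.88, 12.4 and 4.96 CPM. In both genes the groups overlapped and neither passed (0.39 ± 0.51, adjusted p = 0.597, and 0.52 ± 0.75, adjusted p = 0.625). E2f1, the E-type cyclins Ccne1 and Ccne2, and Mybl2, which encodes B-MYB, did not pass either. Ccne2 was at 5.2, 5.90 and 4.41 CPM in BH-KO, against 2.81, 4.29 and 3.36 CPM in BH-WT, without overlap (0.56 ± 0.31, adjusted p = 0.182), and E2f1 at 2.12 to 4.85 CPM, against 1.59 to 1.82 CPM (0.90 ± 0.47, adjusted p = 0.163). Ccne1 was at 1.19 to 4.66 CPM in BH-KO, against 3.93 to 4.90 CPM in BH-WT. Of the untested genes, E2f7, which acts beside E2f8, was at 0.571 to 0.743 CPM in BH-KO, against 0 to 1.28 CPM in BH-WT, and the checkpoint kinase gene Bub1 at 0.297 to 0.970 CPM, against 0 to 0.480 CPM. In both the groups overlapped.

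Read library by library, 14, 33 and 31 of the 42 genes in BH-KO replicates 1, 2 and 3 lay above every BH-WT library, where 32.9%, 39.7% and 38.5% of all tested genes did. For the 16 mitosis genes the counts were 3, 14 and 14, and for the 17 replication genes 8, 12 and 12. Below every BH-WT library lay 8, 2 and 5 of the 42 (32.5%, 36.4% and 36.1% of all tested genes). The median ratio of the 42 genes to the BH-WT mean was 1.12, 3.06 and 1.91 in the 3 libraries, against 0.98, 1.0 and 1.0 for all tested genes. Replicate 2 was the highest for most of the mitosis genes, including Ccna2, Cdc20, Plk1, Top2a and Mki67.

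**Figure D3:**
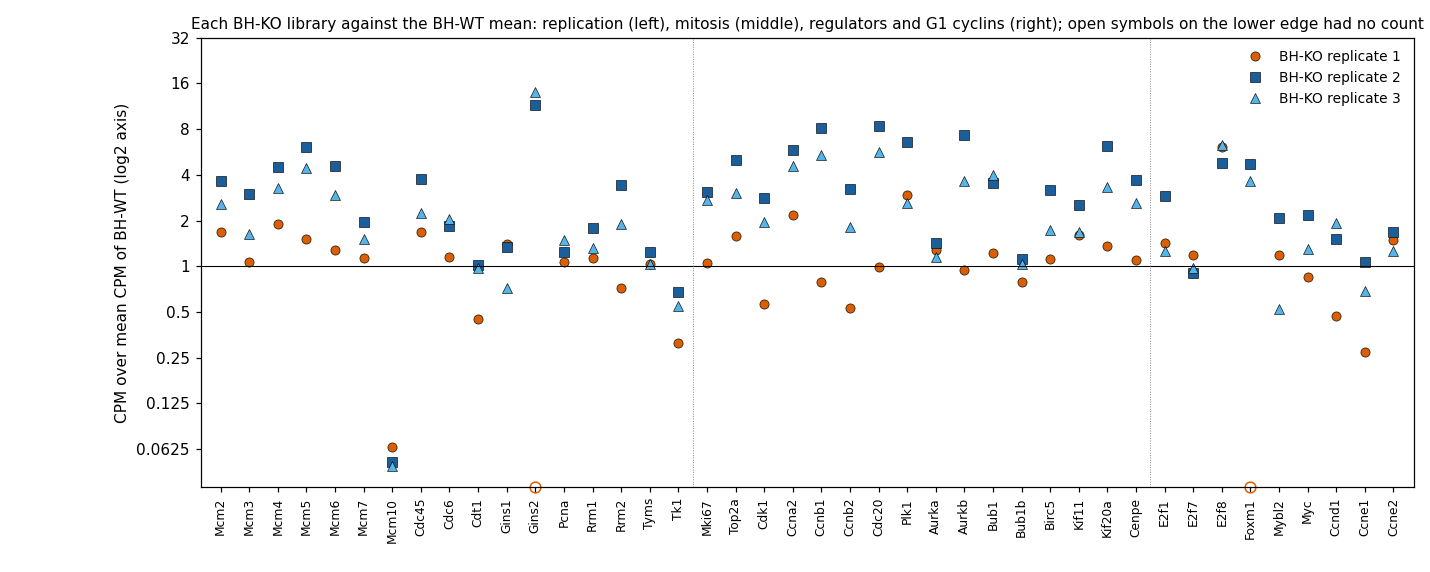
Level of each of the 42 genes in BH-KO replicates 1, 2 and 3, divided by the mean of the BH-WT libraries (log2 axis), with the replication genes left, mitosis genes in the middle and regulators and G1 cyclins right. Replicates 2 and 3 stand well above 1 for most mitosis genes while replicate 1 lies near 1, E2f8 is high and Mcm10 low in all 3, and open symbols at the lower edge mark Gins2 and Foxm1, which had no count in replicate 1.

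The calls in BH-KO rested on few libraries. Without BH-KO replicate 1, 23 of the tested genes rose and 2 fell, with all 16 earlier calls among them, where 19.5% of all tested genes rose and 21.6% fell. When replicate 2 of BH-KO was left out, 3 rose and 2 fell (8.41% and 7.88% of all tested genes), and when replicate 3 was, 8 rose and 1 fell (8.72% and 8.16%). Leaving out replicate 1, 2 or 3 of BH-WT left 7 that rose each time (10.1%, 9.88% and 9.93% of all tested genes) and 1, 2 and 2 that fell (12%, 9.94% and 10.5%). Mcm4, Mcm5 and E2f8 rose and Mcm10 fell in each of these 6 fits, and no mitosis gene did so. With BH-KO and BH-WT fitted alone, 3 of 28 tested genes rose and 1 fell, where 4.24% of all tested genes rose and 4.43% fell.

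**Figure D4:**
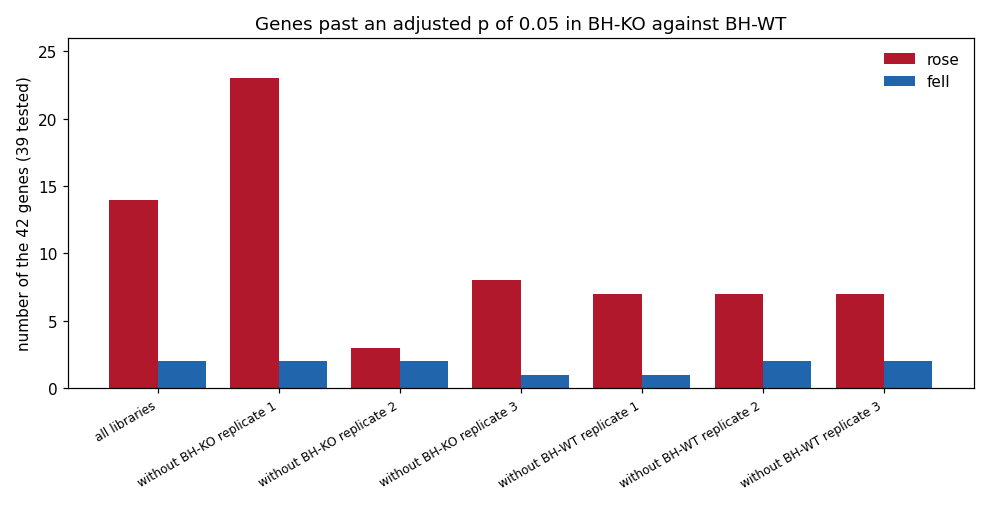
Number of the 42 genes (39 tested) that rose (red) or fell (blue) in BH-KO against BH-WT at an adjusted p under 0.05, with all libraries and with each of the 6 compared libraries left out. The count that rose is 14 with all libraries, 23 when BH-KO replicate 1 is left out and 3 when replicate 2 is.

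In H-KO livers, 3 of the 39 tested genes rose and 2 fell, where 15.8% of all tested genes rose and 19.1% fell, so the share called was not above that of all genes. With no filter, 3 of 42 rose and 1 fell, where 6.2% and 7.7% of all genes with a count did. In level, 16 of the 42 had all H-KO libraries above all H-WT libraries (26.1% of all tested genes) and 5 had them below (25.9%). With no filter the median log2 fold change was 0.74 over the 42, against 0.00 for all genes with a count, and 1.12 over the 16 mitosis genes. In H-KO replicates 1, 2 and 3, 22, 25 and 26 of the 42 lay above every H-WT library (36.5%, 35.1% and 35.5% of all tested genes) and 8, 6 and 6 below (34.9%, 34.6% and 33.9%), while 8, 13 and 11 of the 16 mitosis genes lay above. With libraries scaled by their totals alone, 14 rose and 1 fell, where 6000 of all tested genes rose and 1291 fell, against 2209 and 2662 with TMM factors.

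The genes that rose were Rrm2, Ccnd1 and Kif20a. Ccnd1, the G1 cyclin D1, was at 204, 211 and 246 CPM in H-KO, against 53.7, 34.6 and 67.7 CPM in H-WT, with a log2 fold change of 2.09 ± 0.53 (adjusted p = 0.00804, edgeR). Rrm2 was at 11.3, 11.8 and 14.5 CPM in H-KO, against 2.39, 2.59 and 3.64 CPM in H-WT, and rose by 2.12 ± 0.44 (adjusted p = 0.00164). In both genes every H-KO library was far above every H-WT library. Kif20a was at 3.11, 3.46 and 2.05 CPM in H-KO, against 1.06, 1.11 and 0.560 CPM in H-WT (1.63 ± 0.51, adjusted p = 0.0203), and did not pass without H-KO replicate 1, H-KO replicate 2 or H-WT replicate 3 (adjusted p of 0.0551 to 0.0822). Ccnd1 shares 23.4% of its exon bases with LTO1 on the opposite strand.

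Pcna was at 10.9, 9.84 and 13.2 CPM in H-KO, against 17.2, 14.6 and 13.6 CPM in H-WT, just without overlap. It fell by 0.42 ± 0.16 on the log2 scale (adjusted p = 0.0486, edgeR), but with libraries scaled by their totals alone its log2 fold change was 0.09, so the direction depends on the scaling. DESeq2 gave an adjusted p of 0.0573. Mki67 was at 6.82, 9.51 and 7.80 CPM in H-KO, against 5.45, 3.58 and 0.840 CPM in H-WT (1.28 ± 0.61, adjusted p = 0.12), without overlap but short of the threshold. Top2a was at 2.81, 5.30 and 3.90 CPM in H-KO, against 3.32, 1.85 and 1.40 CPM in H-WT. Cdk1 was at 1.71, 1.30 and 2.44 CPM in H-KO, against 1.06, 2.10 and 1.26 CPM in H-WT. Myc was at 20.3, 21.4 and 13.3 CPM in H-KO, against 8.11, 13.8 and 3.36 CPM in H-WT. The groups overlapped for Top2a, Cdk1 and Myc, and none of them passed. Ccne2 was at 2.11, 2.49 and 1.85 CPM in H-KO, against 4.65, 4.20 and 2.38 CPM in H-WT, with overlap, and just missed the threshold (-0.80 ± 0.32, adjusted p = 0.063). Bub1 had 12 counts in the H-KO libraries and 2 in the H-WT libraries, a ratio of 4.63 with an exact interval of 1.03 to 42.6. E2f8 was at 11.5, 9.73 and 18.6 CPM in H-KO, against 3.59, 8.27 and 4.34 CPM in H-WT (1.29 ± 0.56, adjusted p = 0.09).

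The KO effects of the BH and H lines share no library, and their difference was tested for each gene. Besides Mcm10, which was lower, no gene of the 39 passed, where 3.76% of all tested genes had a higher and 2.3% a lower effect in BH. Pcna had a log2 fold change of 0.34 in BH-KO and -0.42 in H-KO, a difference of 0.76 ± 0.22 (adjusted p = 0.0519, edgeR), and Cdc45 one of 1.38 in BH-KO and -0.57 in H-KO, a difference of 1.95 ± 0.61 (adjusted p = 0.068). Without BH-KO replicate 1, the differences of Mcm4 (1.61 ± 0.41, adjusted p = 0.0245), Pcna (0.86 ± 0.22, adjusted p = 0.0238) and Cdc45 (2.16 ± 0.62, adjusted p = 0.0417) passed too, all higher in BH (4.93% of all tested genes, with 3.72% lower). Ccnd1 stood the other way round, with 0.39 in BH-KO and 2.09 in H-KO, and its difference did not pass (-1.70 ± 0.73, adjusted p = 0.176).

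In the libraries labelled BH-HF-KO, none of the 39 genes passed against BH-HF-WT, and none of the 13958 tested genes did (0%; edgeR). DESeq2 and limma-voom also called 0 of the 39, and 0% of all tested genes. In level, 0 of the 42 had all BH-HF-KO libraries above all BH-HF-WT libraries (5.67% of all tested genes) and 2 had them below (4.69%). The smallest p-values were those of Cenpe, Mybl2 and Rrm2. Cenpe had 0.148, 0 and 0 CPM in BH-HF-KO, against 0.898, 0.250 and 0.143 CPM in BH-HF-WT, or 1 count against 10, a ratio of 0.0987 with an exact interval of 0.00227 to 0.694. Mybl2 had 0.148, 0.133 and 0.227 CPM in BH-HF-KO, against 0.770, 0.375 and 0.286 CPM in BH-HF-WT. Rrm2 had 2.07, 2.13 and 4.76 CPM in BH-HF-KO, against 3.72, 6.62 and 4.29 CPM in BH-HF-WT. Cenpe and Rrm2 overlapped between the groups and Mybl2 did not.

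Mki67 was at 0.738, 2.13 and 0.794 CPM in BH-HF-KO, against 3.59, 0.625 and 1.43 CPM in BH-HF-WT. Top2a was at 1.33, 1.60 and 1.02 CPM, against 4.23, 0.874 and 0.716 CPM. Cdk1 was at 1.33, 1.07 and 1.02 CPM, against 1.41, 0.375 and 1.0 CPM. BH-HF-WT replicate 1 was the highest BH-HF library for each of these mitosis genes. Ccnd1 was at 35.4, 7.07 and 24.7 CPM in BH-HF-KO, against 29.6, 26.6 and 15.6 CPM in BH-HF-WT. Myc was at 21.5, 5.60 and 2.15 CPM, against 6.93, 1.25 and 8.87 CPM. Pcna was at 13.3, 14.8 and 15.4 CPM, against 14.6, 14.1 and 17.2 CPM. In every one of these the groups overlapped. In BH-HF-KO replicates 1, 2 and 3, 13, 6 and 1 of the 42 genes lay above every BH-HF-WT library (23.2%, 27.5% and 26.6% of all tested genes), and 4, 16 and 12 lay below (22.2%, 25% and 27.3%). Mcm10 was high in both groups, at 139, 135 and 146 CPM in BH-HF-KO, against 164, 102 and 167 CPM in BH-HF-WT.

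This comparison uses the same BH libraries as the one between BH and H. The KO effect differed between BH-HF and BH for Mcm10, which was higher in BH-HF, and Mcm4, which was lower, where 3.45% of all tested genes were higher and 2.65% lower. For Mcm10 the difference of the log2 fold changes, BH-HF minus BH, was 4.16 ± 0.31 (adjusted p = 2.73e-06, edgeR), from -0.04 in BH-HF-KO and -4.21 in BH-KO. For Mcm4 it was -1.80 ± 0.46 (adjusted p = 0.0314), from -0.12 in BH-HF-KO and 1.68 in BH-KO. Mcm4 was at 4.57, 4.40 and 4.54 CPM in BH-HF-KO, against 6.03, 5.00 and 3.58 CPM in BH-HF-WT. The difference of Mcm4 did not pass when any single library was left out other than BH-KO replicate 1, BH-WT replicate 2 or BH-HF-WT replicate 3 (adjusted p of 0.0566 to 0.0933 in the 9 fits that failed). Without BH-KO replicate 1, 11 genes had a lower KO effect in BH-HF than in BH (Mcm2 to Mcm7, Gins2, Rrm2, Top2a, Cdc20 and Cenpe) and Mcm10 a higher one, where 8.92% of all tested genes had a lower and 12.2% a higher one. Age, diet and the time since tamoxifen differ together between these settings and cannot be told apart.

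Among the WT groups, none of the genes passed between BH-WT and H-WT, where 0.165% of all tested genes did, or between BH-HF-WT and BH-WT, where 7% did. DESeq2 called 0 and 2 of the 39 genes, where it called 0.724% and 10.7% of all tested genes. Between BH-WT and H-WT the smallest p-values were those of Gins1, Cdc45 and Plk1. Gins1 was at 4.21, 2.57 and 2.40 CPM in BH-WT, against 1.20, 1.60 and 2.24 CPM in H-WT, and Plk1 at 0.561, 0.490 and 0.160 CPM, against 1.06, 0.988 and 0.420 CPM. Cdc45 was at 0.702, 0.613 and 0.799 CPM in BH-WT, against 1.33, 1.36 and 1.26 CPM in H-WT. Of these, Gins1 and Cdc45 did not overlap, and of all 42 genes 3 lay higher in every BH-WT library and 3 lower (7.62% and 7.09% of all tested genes). In the older, high-fat livers Ccnd1 was at 29.6, 26.6 and 15.6 CPM in BH-HF-WT, against 65.1, 113 and 80.4 CPM in BH-WT (-1.84 ± 0.54, adjusted p = 0.0558, edgeR). Mcm10 was at 164, 102 and 167 CPM in BH-HF-WT, against 102, 81.9 and 99.9 CPM in BH-WT (0.61 ± 0.20, adjusted p = 0.075), and Bub1b, a spindle checkpoint kinase, at 0.513, 0.250 and 0.286 CPM, against 1.12, 1.23 and 0.480 CPM.

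Other genes of the cell cycle came from 4 lists, whose counts stand against the shares of all tested genes, 14.3% that rose and 14.3% that fell in BH-KO and 15.8% and 19.1% in H-KO. Of 76 other mitosis genes, 57 were tested, and 17 rose and none fell in BH-KO, among them Ckap2, Cenpf and Kif2c. The centromere protein gene Cenpf, for example, rose by 2.6 ± 0.73 on the log2 scale (adjusted p = 0.0163, edgeR). The count that rose was 37 of 62 tested when BH-KO replicate 1 was left out (19.5% of all tested genes), 0 when replicate 2 was (8.41%) and 6 of 58 when replicate 3 was (8.72%). With no filter, 12 of the 76 rose in BH-KO (5.16% of all genes with a count) and 8 in H-KO (6.2%). The summed level of these 76 genes was 263, 494 and 384 CPM in BH-KO replicates 1, 2 and 3, against 243, 253 and 243 CPM in BH-WT. In H-KO, 10 of the 57 rose, a share near that of all tested genes, with Iqgap3, Anln and Tpx2 the largest rises, and 2 fell, Cenpm and Cenpa. Anln, the cytokinesis scaffold anillin, rose by 1.91 ± 0.48 (adjusted p = 0.00627). Of 48 tested of 58 other replication genes, 10 rose and 4 fell in BH-KO, and 3 rose and 5 fell in H-KO. The single-strand binding protein gene Rpa1 rose in both, by 1.39 ± 0.37 in BH-KO and 1.19 ± 0.37 in H-KO (adjusted p = 0.0142 and 0.022, edgeR). Its BH-KO libraries ran from 20.3 to 95.6 CPM, against 26.1 to 26.2 CPM in BH-WT. The lowest BH-KO library was thus below every BH-WT library.

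Of 27 tested of 30 CDK inhibitor, pocket protein and checkpoint genes, 9 rose and 3 fell in BH-KO (14.3% and 14.3% of all tested genes). In H-KO, 9 rose and 4 fell (15.8% and 19.1%). In both, the falls were below the shares of all tested genes. Cdkn1a, the CDK inhibitor p21, was at 95.6, 136 and 146 CPM in BH-KO, against 0.842, 1.23 and 0.959 CPM in BH-WT, and rose by 6.93 ± 0.43 on the log2 scale (adjusted p = 1.74e-07, edgeR). In H-KO it was at 27.4, 21.7 and 17.3 CPM, against 1.33, 1.23 and 0.840 CPM in H-WT (4.26 ± 0.42, adjusted p = 1.15e-05). Every KO library of both pairs was far above its WT group, BH-KO replicate 1 included, and the rise was larger in BH-KO by 2.66 ± 0.68 (adjusted p = 0.0331). Wee1, the kinase that holds back Cdk1, fell in both, by 1.20 ± 0.29 in BH-KO (adjusted p = 0.00801) and 1.22 ± 0.29 in H-KO (adjusted p = 0.00443), as did the CDK inhibitor gene Cdkn1c, by 1.72 ± 0.54 and 2.03 ± 0.56 (adjusted p = 0.0268 and 0.0109). The stress gene Gadd45a fell by 1.08 ± 0.35 in BH-KO (adjusted p = 0.0308) and rose by 1.25 ± 0.33 in H-KO (adjusted p = 0.00804). In the list of 25 other G1 genes, 6 rose and 3 fell in BH-KO and 5 rose and 4 fell in H-KO, the falls below the shares of all tested genes, with E2f2 and E2f3 among those that rose in both and Mycl among those that fell in both. None of these lists had a gene that passed in BH-HF-KO.

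**Figure D5:**
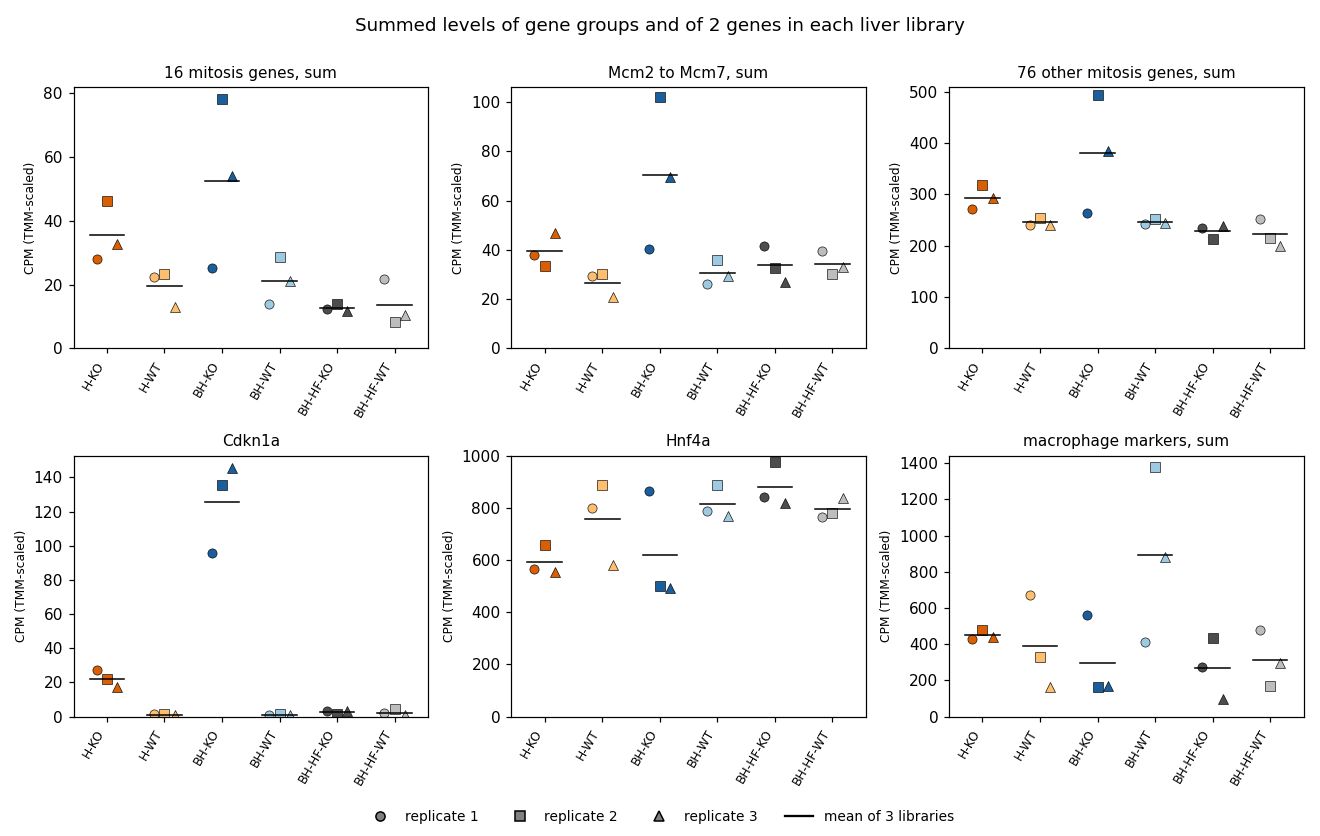
Summed CPM per library of the 16 mitosis genes, of Mcm2 to Mcm7, of 76 other mitosis genes and of macrophage markers, and CPM of Cdkn1a and Hnf4a, with replicates 1, 2 and 3 as circles, squares and triangles and the group mean as a line. The sum of the 16 mitosis genes is 25.1, 78.4 and 53.9 CPM in BH-KO replicates 1, 2 and 3, against 14 to 28.6 CPM in BH-WT, while Cdkn1a is high in all 3.

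The summed levels of hepatocyte, macrophage and cholangiocyte markers differed between the same libraries. The shares of all tested genes were 14.3% higher and 14.3% lower in BH-KO and 15.8% higher and 19.1% lower in H-KO. The hepatocyte marker sum (11 of 12 in the table) was 111790, 63354 and 53577 CPM in BH-KO replicates 1, 2 and 3, against 128800 to 160090 CPM in BH-WT, and 34130 to 44364 CPM in H-KO, against 120270 to 127720 CPM in H-WT. Much of the difference lay in Alb, the gene into which the Cre was placed. Alb was at 13807 to 42215 CPM in BH-KO, against 73175 to 97676 CPM in BH-WT. In H-KO it was at 9848 to 12768 CPM, against 71621 to 81663 CPM in H-WT. Of the 11 hepatocyte markers tested, Apoa1 alone rose and Alb alone fell in BH-KO, and 6 fell in H-KO. The macrophage sum was 559, 165 and 166 CPM in BH-KO, against 413 to 1377 CPM in BH-WT, and 6 of its 15 tested IDs fell there, while none passed in H-KO. The cholangiocyte sum was 135, 315 and 380 CPM in BH-KO, against 56.3 to 123 CPM in BH-WT, with 3 of 6 tested markers higher, and 137 to 202 CPM in H-KO, against 51.0 to 75.6 CPM in H-WT, with 4 of 6 higher. Of the 2 IDs of the macrophage gene Itgam, 1 was at 0 in every library. In BH-KO, endothelial, stellate, lymphocyte and erythroid markers had 3 of 12, 2 of 12, 1 of 5 and 1 of 9 tested genes lower and none higher, of which the stellate and erythroid counts are near or below the share of all tested genes, and neutrophil markers 0 of 4 either way. In H-KO, 2 erythroid markers fell, 1 stellate marker rose and 2 fell, and no endothelial, lymphocyte or neutrophil marker passed. The part of these cell types in the levels of the 42 genes was not tested.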

How the data were processed

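RNA from 18 mouse livers, 3 in each of 6 groups, was sequenced, and the authors deposited raw counts per gene in 1 table of 52636 gene IDs. STAR 2.6 and the build mm10 are named, per the submitters' processing notes. For the counting program, annotation, library kit and strand setting, nothing was found in the labels or the file. Batch and sex are in no label. Gene positions, exon lengths and shared exon bases were taken from an annotation of mm10.

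Counts were tested with edgeR 4.0.16 in R 4.3.3 by the quasi-likelihood F test (robust), with TMM factors, 1 mean per group over all 18 libraries and filterByExpr by group at a minimum count of 10, about 1.22 CPM at the median total. That left 13958 genes, which share one Benjamini-Hochberg adjustment, and the threshold was an adjusted p under 0.05. Standard errors are the log2 fold change divided by the square root of F. Differences of KO effects are interaction contrasts of the same fit. Total counts of 6846471 to 9816124 per library leave many of the mitosis genes at a few counts, and intervals cover counting error only. Replicates of the same number did not deviate together and were not blocked.

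Per-library values were given for Mki67, Top2a, Cdk1, Pcna, Ccnd1 and Myc, for the 12 genes of largest absolute log2 fold change among those that passed in a comparison, and for the 3 of smallest p where none passed. Values of other genes of the list were added to account for them after their values were seen. From each other list, the genes named were among the 3 largest rises and 3 largest falls. The genes and all lists were chosen with earlier results of these data known. Alternatives were DESeq2 1.42.0, limma-voom (limma 3.58.1), other scalings, filters and thresholds, the compared groups alone, a replicate block, and leaving out each library. Counts over the classes and other lists under these alternatives were chosen after seeing the data. The test was tested on simulated data: for BH-KO against BH-WT over 13450 genes, 37% of 2-fold and 78% of 4-fold changes were recovered, with 3 false calls. In the simulation 100 genes were changed by each fold, and no library stood apart as BH-KO replicate 1 does. These rates therefore do not measure recovery or false calls in the real comparison. Figures were drawn with matplotlib 3.10.9.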

Additional observations from a re-analysis of the deposited data

Results flagged for a closer look

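The KO effect on 2 of the genes differed between settings by a test of the difference itself. For Mcm10 the log2 fold change was -4.21 in BH-KO and -2.43 in H-KO, a difference of -1.77 ± 0.30 (adjusted p = 0.00416, edgeR), with all 3 KO libraries below all WT libraries in both pairs. Between the high-fat and the 10-week BH settings, the Mcm10 effect differed by 4.16 ± 0.31 (adjusted p = 2.73e-06), with overlapping groups in BH-HF. For Mcm4 the effect differed between the same settings by -1.80 ± 0.46 (adjusted p = 0.0314), with the 3 BH-KO libraries above all BH-WT libraries and overlapping groups in BH-HF. Both comparisons with the BH setting use the same 6 BH libraries, and the libraries labelled BH-HF-KO had Arntl and Hnf4a at the BH-HF-WT level or above.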

How the results depend on the processing

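For 39 results on single genes, 669 values were recomputed under 29 settings. In 558 both direction and call held, 96 no longer passed, 6 newly passed and 9 changed sign. The 39 results include Mki67, Top2a, Cdk1, Pcna, Ccnd1 and Myc in each KO comparison, whether or not they passed. A result that did not pass at first counts as held when it again fails with the same sign. Where a result moved, the cause was not tested. The number of genes that passed moved by over 1.5 times as follows. The share of all tested genes that passed is in brackets. In H-KO it was 5 (34.9%), and became 15 with library totals alone (52.2%), 8 with the compared groups alone (39.4%) and 3 at an adjusted p under 0.01 (21.3%). In BH-KO it was 16 (28.6%), and became 4 with the compared groups alone (8.67%), where fewer genes and libraries enter, 5 at an adjusted p under 0.01 (13%) and 26 when BH-KO replicate 1 and H-WT replicate 3 were both left out (43%). Between BH-HF-WT and BH-WT it was 0 (7%), with 2 by DESeq2 (10.7%) and 1 with the compared groups alone (6.88%). The difference BH minus H had 1 (6.06%), with 3 by DESeq2 (9.99%) and 4 without that pair of libraries (6.13%). The difference BH-HF minus BH had 2 (6.1%), with 1 by limma-voom (6.76%), at an adjusted p under 0.01 (1.47%) and with the replicate block (4.76%), and 12 without that pair (23.1%).

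Leaving out 1 library at a time gave 5 to 25 genes for BH-KO (16.3% to 41% of all tested genes). For H-KO it gave 3 to 6 (26.4% to 29.8%). BH-HF-KO had 0 to 0 (0% to 0.00693%), as did BH-WT against H-WT (0.0488% to 0.125%). BH-HF-WT against BH-WT had 0 to 1 (1.57% to 7.03%). The range was 1 to 4 in BH minus H (2.4% to 8.65%) and 1 to 12 in BH-HF minus BH (2.47% to 21.1%). The log2 fold change of Pcna in H-KO was 0.092 with library totals alone, and that of Ccnd1 in BH-KO ran between -0.0081 (without BH-KO replicate 3) and 0.782 (without BH-KO replicate 1). In BH-HF-KO, where nothing passed, leaving out a library gave -0.5545 to 1.2594 for Myc, -0.5813 to 0.3239 for Ccnd1, -1.2774 to 0.2671 for Mki67, -0.9508 to 0.705 for Top2a, -0.0952 to 0.7347 for Cdk1 and -0.1292 to 0.0169 for Pcna; without BH-HF-WT replicate 1, Mki67, Top2a and Ccnd1 changed sign, the last to 0.0822.

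With library totals alone the median of all genes moved to 0.51 in H-KO and 0.35 in BH-KO, and with upper-quartile factors to 0.15 and 0.11, where 3338 of all genes rose and 2063 fell in H-KO and 2560 and 1720 in BH-KO. Same-numbered libraries had correlations of -0.254 to 0.0641, so they share only a number. With the replicate block 5 genes passed in H-KO (33.3% of all tested genes), 13 in BH-KO (26.3%) and 1 in BH minus H (4.65%). Depth limits the mitosis genes most: a count of 0 allows up to 0.48 CPM, near the level of several of them in WT livers.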

Other observations

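Alb, albumin, the gene into which the Cre was placed, was at 29893 to 41395 CPM in the libraries labelled BH-HF-KO, against 71912 to 90866 CPM in BH-HF-WT, with no overlap. It was at 13807 to 42215 CPM in BH-KO, against 73175 to 97676 CPM in BH-WT, and BH-KO replicate 1 had the highest level of its group.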
